A study of Rattus norvegicus with 16 samples.

Results

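Ednrb, Adcyap1r1, Ptprs, Mfge8, A2m, Itm2b and Itm2a were grouped under the name of astroglial receptors and secreted proteins. Whether each of them is a gene of astroglia was not tested. The 7 genes were chosen because they lay lower on some PDGF-AA arrays than on no factor arrays at 6 d. Features of the array annotated with exactly 1 symbol, equal to 1 of the 7, were taken and averaged per array. This gave 9 features for the 7 genes, out of 6241 named genes and 12559 units tested, a unit being a named gene or an unnamed probe. Ptprs and Itm2b had 2 features each. Because the choice used the treatment difference at 6 d, that difference is described and not tested here. The mean of both 6 d groups is tested, but on the arrays that the choice used, so its p-values are not independent evidence.

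The RNA came from neural stem and progenitor cells grown as a monolayer, taken from Sprague-Dawley rat neocortex on embryonic day 14.5. The groups were cells kept for 6 d with PDGF-AA at 10 ng/ml, for 6 d with no factor, for 12 h with PDGF-AA at 10 ng/ml, and for 12 h with no factor. Each of 16 arrays, 4 per group, set 1 of these RNAs against RNA of cells given FGF-2 at 10 ng/ml, and the dyes were swapped on 2 of the 4. At least 2 RNA preparations lay behind each group, but which arrays share one is not stated, so a p-value reflects how much hybridisations vary, in part perhaps for technical reasons.

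FGF-2 keeps such progenitors dividing, and its withdrawal lets them differentiate. PDGF-AA, which acts through the receptor PDGFRα, is known for driving division of oligodendrocyte precursors. Astroglia carry endothelin and PACAP receptors, secrete opsonins and protease inhibitors, and express many membrane proteins that neurons and oligodendrocytes share. Ednrb is the endothelin B receptor, Adcyap1r1 the PACAP receptor PAC1, and Ptprs the receptor tyrosine phosphatase sigma, which binds heparan and chondroitin sulfate proteoglycans. Mfge8 is a secreted bridge between phosphatidylserine on dying cells and integrins, and A2m is the secreted broad-range protease inhibitor alpha-2-macroglobulin. Itm2b and Itm2a are paralogous type II membrane proteins with a BRICHOS domain. ITM2B is cleaved by furin and binds the amyloid precursor protein.

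Values are log2 ratios of a group to FGF-2 cells, centred on each array's median, so that 1 unit is a doubling and 0 the FGF-2 level. The log base and the direction are not given in the sources used here. Base 2 is assumed, and sample over reference is likely, because replication genes lay below 0 after FGF-2 withdrawal, with Top2a at -2.49 ± 0.18 (SE, n = 4 arrays) in no factor cells at 12 h. Swapped arrays had been turned one way already. Among units beyond 1 in size on a group's Cy5 arrays, 58.7% to 89.4% kept their sign on its Cy3 arrays. A dye effect past the threshold was fitted for 39.1% of units and for 3 of the 7 genes, with Adcyap1r1 at -1.66, Ptprs at -1.06 and Mfge8 at -0.61 log2 (Cy5 minus Cy3). Array values are therefore given with the fitted dye effect removed. The array is made of mouse cDNA, and transcripts of related genes may bind to the same spot.

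Some 6 d arrays stood apart from the rest of their group. PDGF-AA replicate 4 of 6 d correlated over all units with the no factor arrays of 6 d at 0.360 to 0.524 and with its own group at 0.130 to 0.410. Its own group was also loose without it, PDGF-AA replicates 1 and 3 of 6 d correlating at -0.0022. The trait was not particular to replicate 4. PDGF-AA replicate 3 of 6 d correlated with the no factor arrays of 6 d at 0.236 to 0.379 and with its own group at -0.0022 to 0.164. The no factor arrays of 6 d correlated among themselves at 0.319 to 0.582. All these arrays share the FGF-2 reference, so the correlations describe the arrays and no more. After treatment and time, the array titles give a number that the labels do not explain. The most common number was on 12 arrays, and the other 4, with other numbers, were PDGF-AA replicates 1 to 3 and no factor replicate 1 of 6 d. PDGF-AA at 6 d thus had 1 array, replicate 4, with the most common number. For the treatment difference at 6 d, that number and the treatment can hardly be told apart. Whether RNA or labels of the replicate 4 arrays of the 6 d groups were exchanged was not tested. Of these 2 arrays, the PDGF-AA array was the lower for Itm2a (0.71 against 2.29) and the higher for the other 6 genes. Results at 6 d are given with and without the replicate 4 arrays of both 6 d groups, a choice made after seeing the data.

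Promoter sequences are shown for Ptprs, the gene with the densest motif matches, and for the paralogues Itm2b and Itm2a, which differed in time course. They are the 250 bases before the start of the rat gene (RefSeq, GRCr8), 5′ to 3′ on the gene's strand, and 6 of the 7 genes matched that table. Capitals mark matches, on either strand, to the cyclic AMP response element TGACGTCA, the E-box CACGTG and the GC box GGGCGG. The regions are chr9:1394092-1394341 for Ptprs, chr15:54978456-54978705 for Itm2b and chrX:76565145-76565394 for Itm2a, all on the minus strand.
Ptprs: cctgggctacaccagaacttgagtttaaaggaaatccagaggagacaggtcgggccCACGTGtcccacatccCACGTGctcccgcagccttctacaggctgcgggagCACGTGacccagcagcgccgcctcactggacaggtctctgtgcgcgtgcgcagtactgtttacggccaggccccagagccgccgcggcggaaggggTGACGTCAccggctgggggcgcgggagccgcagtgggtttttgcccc
Itm2b: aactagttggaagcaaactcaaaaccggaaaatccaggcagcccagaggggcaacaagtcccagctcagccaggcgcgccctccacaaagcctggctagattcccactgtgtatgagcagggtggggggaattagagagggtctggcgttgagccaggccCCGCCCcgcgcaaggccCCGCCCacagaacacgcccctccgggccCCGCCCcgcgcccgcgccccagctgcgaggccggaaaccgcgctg
Itm2a: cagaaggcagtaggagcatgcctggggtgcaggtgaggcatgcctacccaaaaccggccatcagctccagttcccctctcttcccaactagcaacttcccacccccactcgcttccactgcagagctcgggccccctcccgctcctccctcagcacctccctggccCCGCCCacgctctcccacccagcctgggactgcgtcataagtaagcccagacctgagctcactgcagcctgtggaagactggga
The Ptprs window held 1 cyclic AMP response element, a motif found in 1.59% of 33469 rat promoter windows of this length, and 3 E-boxes, found in 5.59%. Itm2b had 3 GC boxes and Itm2a 1, a motif in 30.5% of windows. Mfge8 had 3 GC boxes and Adcyap1r1 1, while the Ednrb window held none of these motifs. Neither TATAAA (12.9% of windows) nor TTCNNNGAA (7.67%) occurred in any of the 6 windows. These are matches of letters in a short window, not binding sites.

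**Figure D1:**
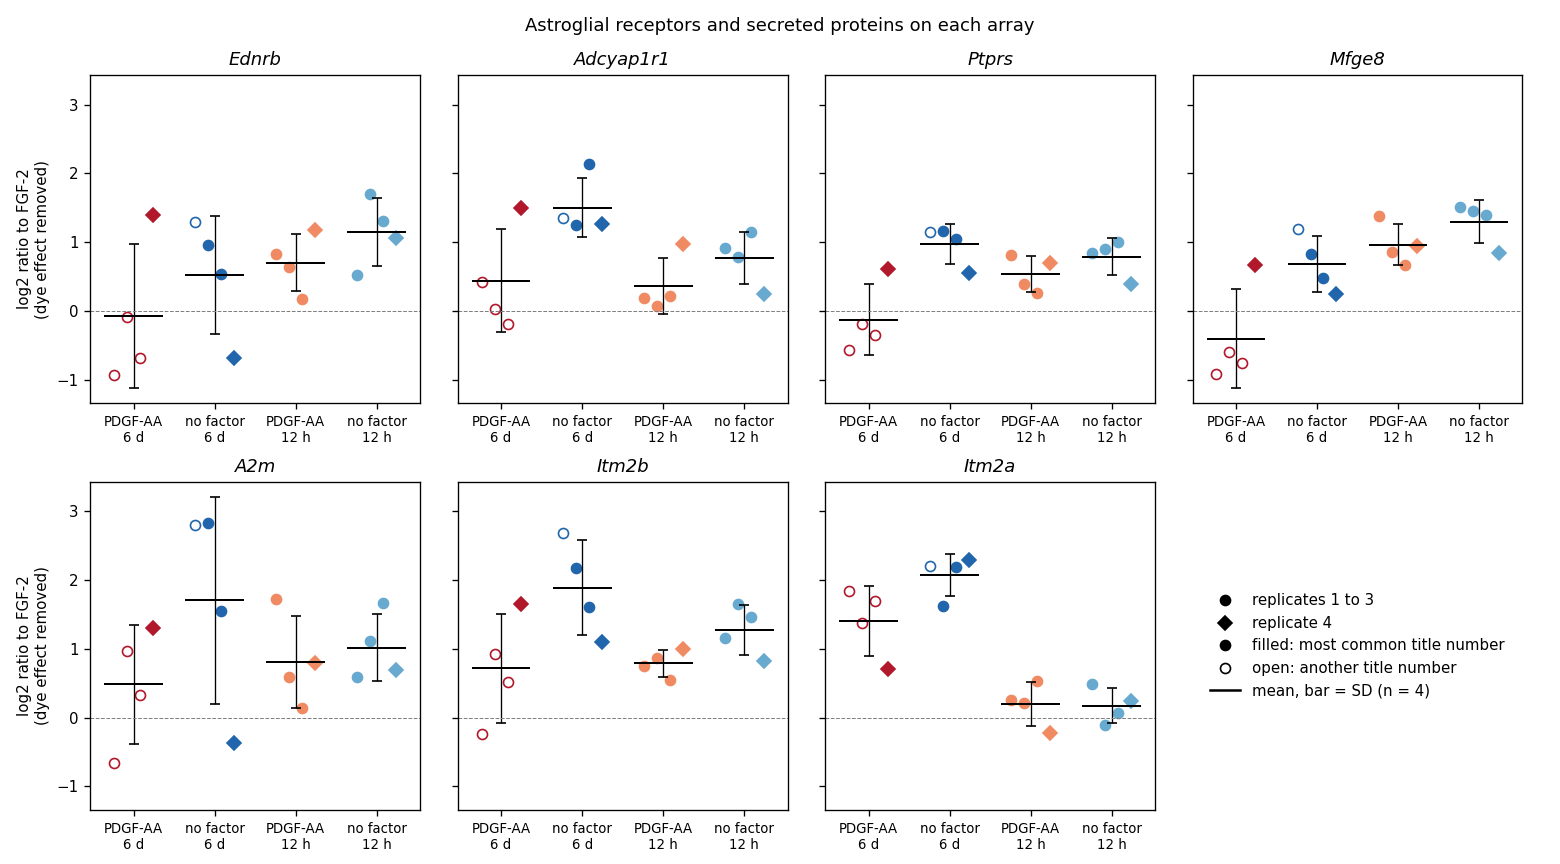
Log2 ratio to FGF-2 cells (y axis, dye effect removed) of each gene on each of the 16 arrays, by group on the x axis; lines are means and bars SD over 4 arrays, diamonds are replicate 4, and open circles are arrays with a title number other than the most common one. For all genes but Itm2a, the PDGF-AA replicate 4 array of 6 d lies above the other 3 arrays of its group.

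Among the receptors, the endothelin B receptor gene Ednrb had the widest scatter at 6 d. Ednrb measured -0.94, -0.09, -0.69 and 1.40 on the PDGF-AA arrays of 6 d (replicates 1 to 4), against 1.29, 0.95, 0.54 and -0.69 on the no factor arrays. Ednrb measured 0.82, 0.63, 0.17 and 1.18 on the PDGF-AA arrays of 12 h, against 0.53, 1.71, 1.31 and 1.05 on the no factor arrays. The 12 h arrays were all above the FGF-2 level, whereas at 6 d replicate 4 of each treatment lay on the other side of 0 from the rest of its group. The mean of both 6 d groups was 0.22 ± 0.23 above FGF-2 (limma adjusted p = 0.642). In PDGF-AA cells at 12 h the estimate was 0.70 ± 0.33 (limma adjusted p = 0.372). Leaving out the replicate 4 arrays of both 6 d groups did not change this estimate. It lowered the SE to 0.15, which gave a limma adjusted p of 0.0133. In no factor cells at 12 h Ednrb rose 2.22-fold over FGF-2 cells (1.15 ± 0.33 log2, SE, n = 4, adjusted p = 0.0299 in limma over all units). That call was lost without no factor 12 h replicate 2, 3 or 4, with estimates of 0.95, 1.09 and 1.18 and adjusted p of 0.189, 0.126 and 0.0774, and when arrays were scaled to equal spread (0.0588). From 12 h to 6 d, averaged over treatments, Ednrb differed by -0.70 ± 0.33 (limma adjusted p = 0.307). Without PDGF-AA 6 d replicate 4 that difference was -0.97 with an adjusted p of 0.0385, and without both replicate 4 arrays -0.75 with 0.0117.

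Adcyap1r1, whose product couples PACAP to cyclic AMP, was highest in no factor cells at 6 d. Adcyap1r1 measured 0.41, 0.03, -0.19 and 1.5 on the PDGF-AA arrays of 6 d, against 1.35, 1.25, 2.14 and 1.26 on the no factor arrays. Adcyap1r1 measured 0.18, 0.07, 0.21 and 0.97 on the PDGF-AA arrays of 12 h, against 0.91, 0.78, 1.15 and 0.25 on the no factor arrays. On these values, with the dye effect removed, 3 arrays of both PDGF-AA groups were close together. Replicate 4 lay above them, inside the range of the no factor arrays. With the dye effect left in, the PDGF-AA arrays of 12 h measured -0.65, 0.90, 1.04 and 0.14, and replicate 4 was not the highest. Over both 6 d groups Adcyap1r1 rose 1.96-fold over FGF-2 (0.97 ± 0.16 log2, SE, limma adjusted p = 0.000477). In PDGF-AA cells at 12 h it stood at 0.36 ± 0.23 (limma adjusted p = 0.591), and in no factor cells at 12 h it rose 1.71-fold (0.77 ± 0.23, adjusted p = 0.0376). Without PDGF-AA 12 h replicate 4 the estimate in PDGF-AA cells was 0.14. The call in no factor cells was lost without no factor 12 h replicate 1, 2 or 3, with estimates of 0.72, 0.77 and 0.63 and adjusted p of 0.146, 0.132 and 0.207. From 12 h to 6 d Adcyap1r1 differed by 0.40 ± 0.23 (limma adjusted p = 0.456). Without a dye term neither call was made, with adjusted p of 0.0827 for the 6 d mean and 0.482 for no factor at 12 h.

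Ptprs had the tightest groups of the receptors, and its 2 features followed each other over the 16 arrays with a largest gap of 0.25 log2 units. Ptprs measured -0.57, -0.19, -0.35 and 0.61 on the PDGF-AA arrays of 6 d, against 1.15, 1.16, 1.05 and 0.55 on the no factor arrays. Ptprs measured 0.82, 0.38, 0.26 and 0.70 on the PDGF-AA arrays of 12 h, against 0.85, 0.90, 1.00 and 0.39 on the no factor arrays. Only replicate 4 brought the 6 d groups into overlap, by 0.61 on the PDGF-AA array against 0.55 on the no factor array. The 6 d estimate of Ptprs was -0.13 ± 0.16 with PDGF-AA and 0.98 ± 0.16 with no factor (SE), so only the latter lay above FGF-2. The mean of both 6 d groups was 1.34-fold the FGF-2 level (0.43 ± 0.12 log2, SE, limma adjusted p = 0.0173). This call was lost without PDGF-AA 6 d replicate 4 (0.29, adjusted p 0.0624) and without no factor 6 d replicate 1, 2 or 3 (0.39, 0.39 and 0.41, adjusted p 0.0584, 0.0540 and 0.0516). In PDGF-AA cells at 12 h the estimate was 0.54 ± 0.16 (limma adjusted p = 0.0921). Without PDGF-AA 6 d replicate 4 the estimate was the same, with an SE of 0.13 and an adjusted p of 0.0244. In no factor cells at 12 h Ptprs rose 1.72-fold (0.78 ± 0.16 log2, SE, n = 4, limma adjusted p = 0.00433), a call that held with any 1 array left out. Without a dye term neither the 6 d call (limma adjusted p = 0.315) nor the 12 h call of no factor cells (0.175) was made, and scaling the arrays to equal spread lost the 6 d call (0.0676). From 12 h to 6 d Ptprs differed by -0.24 ± 0.16 (limma adjusted p = 0.574).

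The secreted Mfge8 had the highest estimates of the 7 genes at 12 h, and it fell with time. Mfge8 measured -0.92, -0.60, -0.76 and 0.67 on the PDGF-AA arrays of 6 d, against 1.18, 0.83, 0.48 and 0.25 on the no factor arrays. Mfge8 measured 1.39, 0.85, 0.67 and 0.95 on the PDGF-AA arrays of 12 h, against 1.51, 1.45, 1.39 and 0.83 on the no factor arrays. On 3 of 4 PDGF-AA arrays of 6 d Mfge8 was below 0, and on all 8 arrays of 12 h it was above 0. Mfge8 rose 1.95-fold in PDGF-AA cells at 12 h (0.96 ± 0.21 log2, SE, n = 4, limma adjusted p = 0.0185). It rose 2.46-fold in no factor cells at 12 h (1.30 ± 0.21, limma adjusted p = 0.000577). The PDGF-AA call was lost without PDGF-AA 12 h replicate 1, 2 or 4 (0.81, 1.01 and 0.97, adjusted p 0.189, 0.0805 and 0.0677) and without a dye term (0.0998). From 12 h to 6 d, averaged over treatments, Mfge8 fell by 0.99 ± 0.21 log2 units (limma adjusted p = 0.00989), which left it at 0.14 ± 0.15 against FGF-2 over both 6 d groups (adjusted p = 0.644). On arrays with the most common title number alone the change with time was -0.49 (adjusted p = 0.312), with title number as a term -0.76 (0.276), without a dye term -0.99 (0.0564), and without both replicate 4 arrays -1.10. By treatment, 6 d minus 12 h was -1.37 ± 0.30 in PDGF-AA cells and -0.61 ± 0.30 in no factor cells, which is description, since the 6 d groups entered the choice of the genes.

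A2m, the protease inhibitor, had the largest spread of the 7 in no factor cells at 6 d (SD 1.51). A2m measured -0.66, 0.97, 0.32 and 1.30 on the PDGF-AA arrays of 6 d, against 2.81, 2.83, 1.56 and -0.38 on the no factor arrays. A2m measured 1.73, 0.60, 0.14 and 0.79 on the PDGF-AA arrays of 12 h, against 0.59, 1.11, 1.67 and 0.70 on the no factor arrays. Its lowest no factor array of 6 d, replicate 4, lay below 3 of the 4 PDGF-AA arrays. The 6 d estimate of A2m was 0.48 ± 0.42 with PDGF-AA and 1.71 ± 0.42 with no factor (SE). Averaged over both 6 d groups A2m rose 2.14-fold (1.09 ± 0.30 log2, SE, limma adjusted p = 0.0163). The call was lost without PDGF-AA 6 d replicate 2 or 4 (1.01 and 0.95, adjusted p 0.0509 and 0.0691) and without no factor 6 d replicate 1 or 2 (0.89 each, adjusted p 0.0710 and 0.0659). It was also lost with title number as a term (0.98, limma adjusted p = 0.301), on the most common title number alone (1.31, 0.116), with the 6 d groups fitted alone (0.0548) and without a dye term (0.0574). At 12 h A2m did not pass in either group, standing at 0.82 ± 0.42 in PDGF-AA cells (limma adjusted p = 0.437) and 1.02 ± 0.42 in no factor cells (adjusted p = 0.143). Without PDGF-AA 12 h replicate 1 the estimate in PDGF-AA cells was 0.48. Without no factor 6 d replicate 4 the estimate in no factor cells was unchanged at 1.02, with an adjusted p of 0.0298. The change from 12 h to 6 d was 0.18 ± 0.42 (limma adjusted p = 0.908).

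The paralogues Itm2b and Itm2a took different courses. Itm2b measured -0.24, 0.92, 0.52 and 1.66 on the PDGF-AA arrays of 6 d, against 2.69, 2.18, 1.60 and 1.09 on the no factor arrays. Itm2b measured 0.76, 0.86, 0.54 and 1.00 on the PDGF-AA arrays of 12 h, against 1.16, 1.65, 1.47 and 0.82 on the no factor arrays. Itm2b was above FGF-2 on 15 of 16 arrays. Its 6 d estimate was 0.72 ± 0.25 with PDGF-AA and 1.89 ± 0.25 with no factor (SE). Averaged over both 6 d groups it rose 2.47-fold (1.30 ± 0.18 log2, SE, limma adjusted p = 6.75e-05). In PDGF-AA cells at 12 h Itm2b stood at 0.79 ± 0.25 (limma adjusted p = 0.111). The same estimate had an SE of 0.17 and an adjusted p of 0.0162 when the replicate 4 arrays of both 6 d groups were left out. In no factor cells at 12 h it rose 2.42-fold (1.27 ± 0.25, n = 4, limma adjusted p = 0.00274). The calls over 6 d and in no factor cells at 12 h held under all 23 alternatives. From 12 h to 6 d it differed by 0.27 ± 0.25 (limma adjusted p = 0.708). Its 2 features, which differed by up to 0.98 on an array, had the same sign on all 16, and both passed over the 6 d groups and in no factor cells at 12 h.

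Itm2a measured 1.85, 1.37, 1.70 and 0.71 on the PDGF-AA arrays of 6 d, against 2.20, 1.63, 2.19 and 2.29 on the no factor arrays. Itm2a measured 0.26, 0.21, 0.54 and -0.23 on the PDGF-AA arrays of 12 h, against 0.49, -0.10, 0.07 and 0.25 on the no factor arrays. Every 6 d array was above every 12 h array. Itm2a thus lay near the FGF-2 level at 12 h, at 0.20 ± 0.17 in PDGF-AA cells (limma adjusted p = 0.756) and 0.18 ± 0.17 in no factor cells (adjusted p = 0.61). Over both 6 d groups it rose 3.35-fold (1.74 ± 0.12 log2, SE, limma adjusted p = 5.73e-08), and from 12 h to 6 d it rose 2.94-fold (1.56 ± 0.17, adjusted p = 3.38e-05). Both calls held under all 23 alternatives. It was the gene of the 7 for which replicate 4 of PDGF-AA at 6 d was the lowest array of its group, not the highest.

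**Figure D2:**
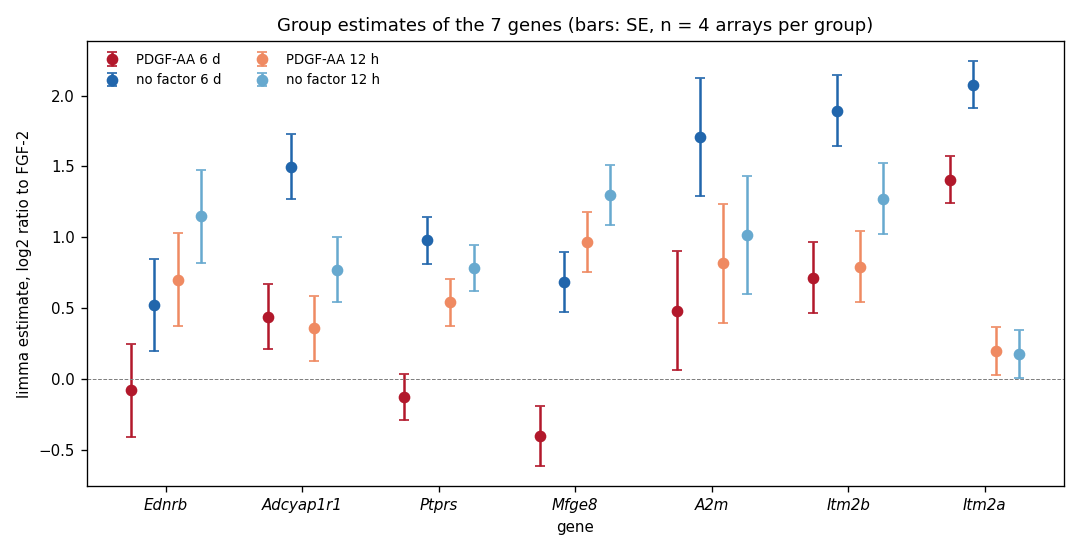
Group estimates from limma (y axis, log2 ratio to FGF-2 cells, bars SE, 4 arrays per group) for each gene on the x axis. Itm2a had the highest estimate of the 7 genes in both 6 d groups (1.41 with PDGF-AA, 2.08 with no factor), and Mfge8 in both 12 h groups (0.96 with PDGF-AA, 1.30 with no factor).

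Counted over the 7 genes, the mean of both 6 d groups was higher than FGF-2 for 5, beside 7.72% of all units higher, and for 5 also when both replicate 4 arrays were left out. PDGF-AA at 12 h gave 1 higher, beside 0.661% of units higher, and no factor at 12 h gave 5 higher, beside 5.21%. When the replicate 4 arrays of 6 d were left out, these 12 h counts were 4 for PDGF-AA and 6 for no factor. The 12 h estimates were unchanged and only their SE, drawn from the spread of all groups, was smaller, so these counts add no 12 h values. The 4 were Ednrb, Ptprs, Mfge8 and Itm2b, and A2m was added to the 5 of no factor (adjusted p = 0.0148). The median of the 7 was 0.70 in PDGF-AA cells and 1.02 in no factor cells at 12 h, with the median of all units at -0.0005 and -0.001. With time, 1 of 7 rose (Itm2a), beside 3.35% of units, and 1 fell (Mfge8), beside 2.09%. Without both replicate 4 arrays 3 of the 7 changed with time, Ednrb being the other one. Shares of all units here are those of the fit with all arrays, so the counts without replicate 4 have no share beside them. Since the genes were chosen on these arrays, the counts describe them and are not independent evidence. In RNA from whole cultures, fewer cells of a type and less RNA per cell cannot be told apart.

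The treatments were tested against each other at 12 h, when 0 of 7 genes passed in limma, beside 0.0159% of all units (2 units). At an unadjusted p below 0.05 limma gave 0 of 7 genes, beside 5.42% of all units (681 units). The difference, PDGF-AA minus no factor, was below 0 for 6 of 7 genes, with a median of -0.33 against -0.0027 for all units. It was -0.48 for Itm2b (95% interval -1.23 to 0.27), -0.45 for Ednrb (-1.43 to 0.54) and -0.41 for Adcyap1r1 (-1.10 to 0.28). Mfge8 had -0.33 (-0.97 to 0.30), Ptprs -0.24 (-0.73 to 0.25), A2m -0.20 (-1.45 to 1.05) and Itm2a 0.02 (-0.48 to 0.52). The intervals of Itm2b, Ednrb, Adcyap1r1 and A2m include a halving in PDGF-AA cells, and that of A2m also a doubling. The interval of A2m is the widest, reaching beyond 1 in both directions. The order of these sizes is not settled, since with 1 array left out the difference ran from -0.65 to -0.35 for Itm2b, from -0.67 to -0.24 for Ednrb and from -0.64 to -0.28 for Adcyap1r1. The call of Mfge8 in PDGF-AA cells and of 5 genes in no factor cells at 12 h is no test of a treatment difference. The test of the difference found none for these 7.

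At 6 d, where the genes were chosen, PDGF-AA minus no factor ran from -1.22 (A2m) to -0.60 (Ednrb), with a median of -1.09 against 0.0007 for all units. Itm2b had -1.18 ± 0.35, Ptprs -1.11 ± 0.23, Mfge8 -1.09 ± 0.30, Adcyap1r1 -1.06 ± 0.33 and Itm2a -0.67 ± 0.24 (SE). With all arrays the groups overlapped for all 7 genes (0 apart, beside 2.46% of units apart with PDGF-AA lower), the PDGF-AA array being the lower in 11 to 15 of 16 pairs. With 1 array left out the difference of Ednrb ran from -1.14 (without PDGF-AA replicate 4) to -0.29 (without PDGF-AA replicate 1), and that of A2m from -1.98 (without no factor replicate 4) to -0.81 (without PDGF-AA replicate 1). Replicate 4 of PDGF-AA was the highest array of its group for 6 of 7 genes, and replicate 4 of no factor the lowest for 5 of 7. Without both replicate 4 arrays, 6 of 7 genes did not overlap, beside 9.91% of units, and the difference was -2.38 ± 0.42 for A2m, -1.87 ± 0.29 for Itm2b and -1.69 ± 0.20 for Mfge8. It was then -1.68 ± 0.25 for Ednrb, -1.58 ± 0.29 for Adcyap1r1, -1.57 ± 0.17 for Ptprs and -0.31 ± 0.22 for Itm2a, whose groups still overlapped. On values with the dye effect left in, the groups of Adcyap1r1 overlapped too, with 0.64 on the highest PDGF-AA array and 0.52 on the lowest no factor array. Among arrays with the most common title number, which leave 1 PDGF-AA array, the same difference was 1.18 ± 0.56 for Ednrb, 0.20 ± 0.32 for Mfge8, 0.06 ± 0.38 for Itm2b and 0.02 ± 0.42 for Adcyap1r1. It was -0.05 ± 0.90 for A2m, -0.26 ± 0.30 for Ptprs and -1.39 ± 0.32 for Itm2a, so the median over the 7 was 0.02. With the title number as a term in the fit of all arrays, all 7 were below 0, between -1.34 and -0.32.

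**Figure D3:**
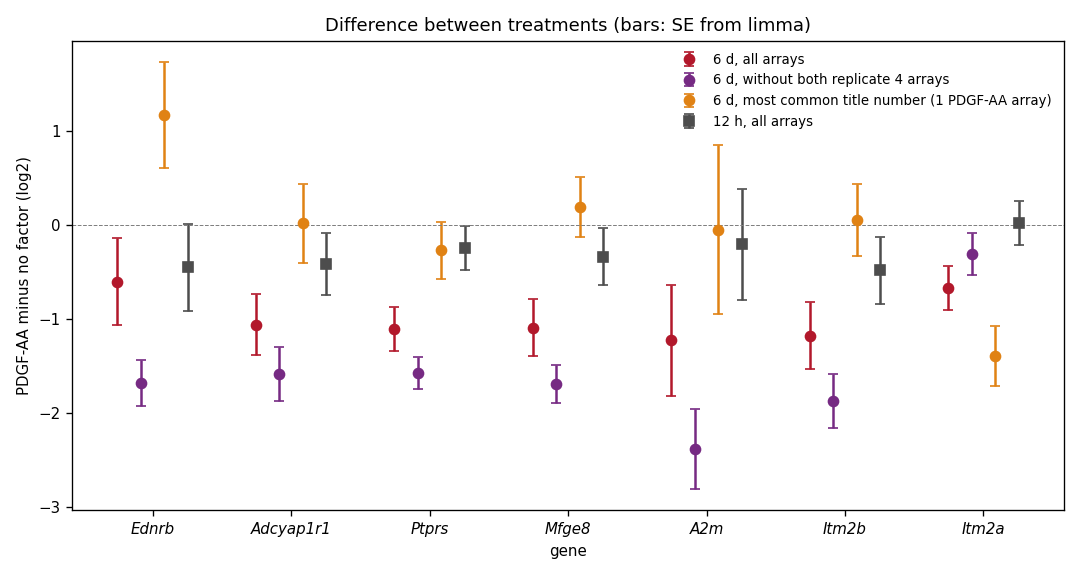
PDGF-AA minus no factor (y axis, log2, bars SE from limma) for each gene on the x axis, at 6 d with all arrays, without both replicate 4 arrays and on the most common title number alone, and at 12 h with all arrays. The 6 d difference is below 0 for all 7 genes with all arrays and for 3 of 7 on the most common title number alone, where PDGF-AA has 1 array.

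Markers of cell types were set beside these genes. The astrocyte list had 13 measured genes that are not among the 7, and Gfap and Aqp4 were not analysed here, having no feature of a single such symbol. Against FGF-2, 3 of 13 rose and 2 fell in PDGF-AA cells at 6 d (all units 3.22% either way), and 10 rose and 2 fell in no factor cells at 6 d (13.7%). At 12 h, 0 passed in PDGF-AA cells (3.01%), and 3 rose and 1 fell in no factor cells (11.7%). Clu, which encodes the secreted chaperone clusterin, rose to 1.52 ± 0.36 in PDGF-AA cells and 3.22 ± 0.36 in no factor cells at 6 d, and Gja1, a connexin of astrocyte gap junctions, to 1.2 ± 0.17 and 1.89 ± 0.17 in the same groups (SE, limma adjusted p at most 0.0279). Cst3, the protease inhibitor cystatin C, fell by 2.06 ± 0.21 in PDGF-AA cells and by 2.22 ± 0.21 in no factor cells at 6 d. Entpd2, an ectonucleotidase, was the 1 gene of the list called lower in PDGF-AA than in no factor cells at 6 d (-1.45 ± 0.17, limma adjusted p = 0.00203). It was also the 1 unit so called among all units (0.00796%). The median of this difference over the list was -0.55, and Clu, at -1.71 ± 0.51, did not pass (limma adjusted p = 0.418). Without PDGF-AA 6 d replicate 2 or replicate 3 the count of 5 in PDGF-AA cells at 6 d was 3. Without PDGF-AA 6 d replicate 4 the count of 4 in no factor cells at 12 h was 8, and that of 0 in PDGF-AA cells at 12 h was 2. With 1 array left out, the count of 12 either way in no factor cells at 6 d ran from 8 to 12. Of those 13 genes, 6 had an unadjusted limma p below 0.05 in PDGF-AA cells at 12 h, beside 13.2% of all units.

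The mean of the 13 astrocyte genes per array moved with the mean of the 6 genes other than Itm2a. The mean of the 6 was -0.49, 0.17, -0.19 and 1.19 on the PDGF-AA arrays of 6 d, against 1.75, 1.53, 1.23 and 0.35 on the no factor arrays. The astrocyte mean was -0.12, 0.07, -0.06 and 0.79 on the PDGF-AA arrays, against 1.09, 0.65, 0.85 and 0.45 on the no factor arrays. On both measures PDGF-AA replicate 4 was the highest array of its group and no factor replicate 4 the lowest. The 3 measured oligodendrocyte lineage genes, Pdgfra, Sirt2 and Cd9, had the same order at the extremes, with means of 1.08, 1.44, 1.02 and 1.97 on the PDGF-AA arrays of 6 d, against 2.32, 1.84, 1.98 and 1.00 on the no factor arrays. Of these, 2 rose in PDGF-AA and 3 in no factor cells at 6 d, Sirt2 by 2.63 ± 0.17 and 3.09 ± 0.17. At 12 h 0 passed in PDGF-AA cells (1 at an unadjusted limma p below 0.05) and 1 in no factor cells. Without PDGF-AA 6 d replicate 2 or 4 the count of 2 was 1, and at 12 h in no factor cells it ran from 0 (without no factor 12 h replicate 1 or 3) to 2 (without no factor 6 d replicate 4). The order was not particular to glial markers. PDGF-AA replicate 4 was also the highest and no factor replicate 4 the lowest array of its 6 d group for the neuronal mean (0.17 and 0.20), receptor phosphatases and proteoglycans (0.27 and 0.32), protease inhibitors (0.16 and -0.01) and the Itm2 and amyloid precursor genes (0.35 and 0.30). Other lists did not have this order at both ends: endothelin signalling, cyclic AMP signalling, uptake of dying cells, and mural, microglial, endothelial and neural crest genes. For endothelin signalling, cyclic AMP signalling and uptake of dying cells, no factor replicate 4 was the highest array of its 6 d group (0.21, 0.15 and 0.01). The part of astrocyte and oligodendrocyte content in the values of the 7 genes was not tested.

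**Figure D4:**
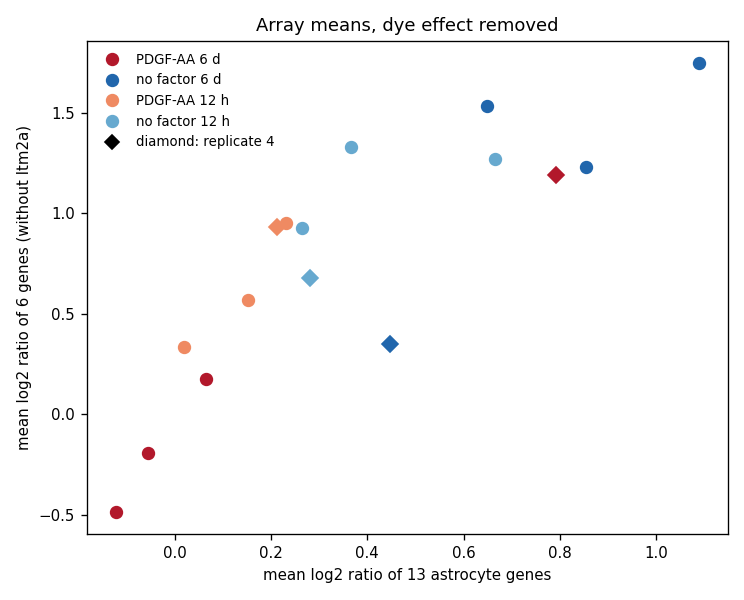
Mean log2 ratio of Ednrb, Adcyap1r1, Ptprs, Mfge8, A2m and Itm2b (y axis) against the mean log2 ratio of 13 astrocyte genes (x axis), 1 point per array with the dye effect removed and replicate 4 as diamonds. The PDGF-AA replicate 4 array of 6 d, at 1.19 for the 6 genes, lies with the no factor arrays, and the other 3 PDGF-AA arrays of 6 d lie at or below 0.17.

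Markers of other cells were fewer on the array. Of 5 neuronal genes, 0 passed in PDGF-AA cells (2 at an unadjusted limma p below 0.05) and 2 rose in no factor cells at 6 d, Mapt reaching 1.19 ± 0.15, and at 12 h 1 rose in PDGF-AA cells while 2 rose and 1 fell in no factor cells. The neuronal mean per array ran from -0.23 to 0.17 in PDGF-AA cells and from 0.20 to 0.45 in no factor cells at 6 d. Of 6 mural, meningeal and fibroblast genes, 2 rose in PDGF-AA cells (Col3a1 by 1.04 ± 0.13, Pdgfrb by 0.82 ± 0.15) and 5 in no factor cells at 6 d, and 0 (2 at an unadjusted limma p below 0.05) and 1 at 12 h. Their mean per array ran from 0.26 to 0.88 in PDGF-AA cells and from 0.78 to 0.99 in no factor cells at 6 d. Without PDGF-AA 6 d replicate 4 the count of 2 was 1, without no factor 12 h replicate 1, 2 or 3 the count of 1 was 0, and without PDGF-AA 12 h replicate 1 or 2 the neuronal count of 1 was 0. Without PDGF-AA 6 d replicate 1 or no factor 12 h replicate 4 that neuronal count was 2, and without PDGF-AA 6 d replicate 1 the neuronal count of 0 was 1. The mural count of 0 in PDGF-AA cells at 12 h was 1 without PDGF-AA replicate 1 or 4 or no factor replicate 1 of 6 d, or no factor replicate 3 of 12 h. None of 5 microglial genes, 4 endothelial genes and 1 neural crest gene (Kit) passed in any of the 4 groups in limma, with or without any 1 array. At an unadjusted p below 0.05 limma gave 1 microglial gene in no factor cells at 6 d and 1 endothelial gene in no factor cells at 12 h, and 0 otherwise. The part of these cells in the values of the 7 genes was not tested.

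Genes that work with the 7 gave mixed counts, each read against the shares of all units given above. Where a count below is 0, limma gave at an unadjusted p below 0.05 a count of 0 for endothelin signalling in both groups at 12 h, 1 for cyclic AMP and 6 for protease inhibitors in PDGF-AA cells at 12 h, and 0 for uptake of dying cells in PDGF-AA cells at 6 d. Of all units, 13.2% had such a p in PDGF-AA cells at 12 h and 22.8% in no factor cells at 12 h. Of 9 measured genes of endothelin signalling, 1 rose in PDGF-AA cells and 1 in no factor cells at 6 d, in both cases Gna12, the alpha subunit of the G protein G12 (0.42 ± 0.11 and 0.40 ± 0.11), and 0 passed at 12 h. The Gna12 calls sat near the threshold (limma adjusted p = 0.0475 and 0.0208), and the count in PDGF-AA cells was 2 without no factor 6 d replicate 2. It was 0 without PDGF-AA replicate 2 or 3 or no factor replicate 1 or 4 of 6 d, or without PDGF-AA replicate 1, 2 or 3 or no factor replicate 1, 3 or 4 of 12 h. In no factor cells at 6 d it was 0 without no factor 6 d replicate 3 or 4 and 2 without PDGF-AA 12 h replicate 3. Of 9 genes of PACAP and cyclic AMP signalling, Pde4b, a cyclic AMP phosphodiesterase, rose at 6 d in PDGF-AA cells (0.47 ± 0.12) and in no factor cells (0.48 ± 0.12). Prkaca, the catalytic subunit alpha of protein kinase A, fell by 0.47 ± 0.10 in no factor cells at 12 h, and 0 of 9 passed in PDGF-AA cells at 12 h. The Pde4b call was lost without PDGF-AA 6 d replicate 2, 3 or 4 in PDGF-AA cells, and without no factor 6 d replicate 1 in no factor cells.

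Of 17 receptor phosphatases, proteoglycans and their partners, 2 rose in PDGF-AA cells and 6 rose and 1 fell in no factor cells at 6 d. At 12 h 2 rose in PDGF-AA cells, and 6 rose and 1 fell in no factor cells. Ptprd, a receptor phosphatase of the same subfamily as Ptprs, stood at 1.33 ± 0.16 in no factor cells at 6 d, 0.70 ± 0.16 in PDGF-AA cells at 12 h and 0.78 ± 0.16 in no factor cells at 12 h, and passed in all 3. Mdk, the secreted growth factor midkine, which binds sulfated proteoglycans, rose by 0.92 ± 0.14 in PDGF-AA cells and 1.08 ± 0.14 in no factor cells at 12 h. Ptpre and Ptpra, receptor phosphatases with short extracellular parts, rose at 6 d by 0.78 ± 0.19 and 0.46 ± 0.11 in PDGF-AA cells and by 0.90 ± 0.19 and 0.86 ± 0.11 in no factor cells. The count of 2 in PDGF-AA cells at 6 d was 0 without PDGF-AA 6 d replicate 2 or 3 and 1 without replicate 4. At 12 h it was 1 without PDGF-AA 12 h replicate 1 or 2, 4 without both replicate 4 arrays of 6 d, and in no factor cells 4 in place of 7 without no factor 12 h replicate 2, 3 or 4.

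Of 14 genes for the uptake of dying cells, the process Mfge8 serves, 0 passed in PDGF-AA cells at 6 d, and 1 rose and 1 fell in no factor cells at 6 d. At 12 h 2 fell in PDGF-AA cells, and 1 rose and 3 fell in no factor cells. Itgb5, an integrin subunit of a receptor for MFG-E8, fell by 0.76 ± 0.10 in PDGF-AA cells and by 0.53 ± 0.10 in no factor cells at 12 h, where Mfge8 itself rose. Pros1, protein S, a ligand of TAM receptors, fell by 0.41 ± 0.10 in PDGF-AA cells and by 0.46 ± 0.10 in no factor cells at 12 h. The count of 2 in PDGF-AA cells at 12 h was 1 without any one of the PDGF-AA 12 h arrays, and that of 4 in no factor cells was 2 without no factor 12 h replicate 3. The count of 2 in no factor cells at 6 d was 1 without no factor 6 d replicate 1, 2 or 3 or no factor 12 h replicate 3 or 4.

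Of 13 protease inhibitors and genes of the A2m receptor LRP1, 1 rose and 2 fell in PDGF-AA cells and 5 rose and 1 fell in no factor cells at 6 d. At 12 h 0 passed in PDGF-AA cells and 5 rose in no factor cells. Timp3, an inhibitor of metalloproteinases, rose by 0.71 ± 0.18 in PDGF-AA cells and by 1.2 ± 0.18 in no factor cells at 6 d, and by 0.83 ± 0.18 in no factor cells at 12 h. Timp4 fell by 0.89 ± 0.18 in PDGF-AA cells at 6 d. Lrpap1, a chaperone of LRP1, rose in no factor cells by 0.44 ± 0.12 at 6 d and 0.56 ± 0.12 at 12 h. The count of 3 in PDGF-AA cells at 6 d was 1 without PDGF-AA 6 d replicate 2, and the 6 of no factor cells was 3 without no factor 6 d replicate 1, 2 or 3. The 5 of no factor cells at 12 h was 1 without no factor 12 h replicate 2 and 3 without replicate 1, 3 or 4.

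Of 15 genes of the Itm2 family and of amyloid precursor processing, 2 rose in PDGF-AA cells and 6 in no factor cells at 6 d, and 1 and 2 at 12 h, with 0 lower. Bace1, the beta-secretase, rose by 0.92 ± 0.09 in PDGF-AA cells and by 1.35 ± 0.09 in no factor cells at 6 d, and App, the precursor itself, by 0.52 ± 0.09 and 0.92 ± 0.09 in the same groups. Itm2c, the third paralogue, rose by 1.05 ± 0.15 in no factor cells at 6 d, with Aplp2, a relative of App, at 0.95 ± 0.12. The counts at 6 d were 2, and 5 to 6, over the fits without 1 array. The 12 h counts were 0 without PDGF-AA 12 h replicate 1, 2 or 4 and without no factor 12 h replicate 1, 2 or 3.

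Over the 16 arrays, which share the FGF-2 reference, the 15 pairs among the 6 genes other than Itm2a had Pearson r of 0.34 (Adcyap1r1 and Mfge8) to 0.86 (Ptprs and Mfge8), with a median of 0.69. The 6 pairs with Itm2a had r of -0.57 (Ednrb) to 0.31 (Adcyap1r1). The named genes closest in pattern over the 16 arrays, by Pearson r, were Apcdd1 (0.92), Gsta4 (0.92) and Sbk1 (0.90) for Ednrb, and Maged2 (0.88), Chd4 (0.86) and Abca3 (0.86) for Adcyap1r1. For Ptprs they were Nrbp2 (0.97), Scarb2 (0.94) and Pmepa1 (0.94). Nrbp2 stood at 0.60 in PDGF-AA cells and 2.24 in no factor cells at 6 d, and at 1.55 in PDGF-AA cells and 2.00 in no factor cells at 12 h. For Mfge8 they were Ciz1 (0.97), Dbn1 (0.96) and Ing4 (0.96), and for A2m Lima1, Lgals3 and Atp9a, at 0.84 to 0.85. For Itm2b they were Laptm4a (0.93), Nfix (0.90) and Pld3 (0.90). For Itm2a they were Slc6a8 (0.95), Rapgef5 (0.94) and Rmdn3 (0.93). Slc6a8, the creatine transporter, stood at 0.83 in PDGF-AA cells and 1.28 in no factor cells at 6 d, and at 0.10 in PDGF-AA cells and 0.11 in no factor cells at 12 h. These likenesses are descriptions of arrays that share the FGF-2 reference, on values with the fitted dye effect removed, and were not tested.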

How the data were processed

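The log2 ratios were deposited as 1 value per feature and array, for 15151 features and 16 arrays. Per the labels' protocols, 40 µg of total RNA per channel went into Cy3 or Cy5 labelling, for hybridisation to mouse cDNA arrays. The log base, and how backgrounds, normalisation and filters were handled, are not stated in the sources used here. Deposited medians lay between -0.0053 and 0.0387. Symbols are those of the chip annotation: 8833 features had 1 symbol, 606 several and 5712 none.

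Arrays were centred on their median, features of 1 symbol averaged, and the 12559 units with values on at least 3 arrays per group fitted with limma 3.58.1 (R 4.3.3), with 4 group coefficients and a dye term. Tests are two-sided, adjusted by Benjamini-Hochberg over all units at 0.05. The reference counts as 1 control sample, so its own spread is left out. For the 7 genes, contrasts that the choice had used were not tested. The genes and lists were chosen with earlier results of these data known. All 7 genes are named, with up to 4 called genes with the largest estimates per list and the 3 closest in pattern per gene. The fit was tested on simulated data. Signal over background is unknown, as spot intensities were not used here. Precision is limited by the number of arrays. Alternatives were no dye term, no centring, scaled arrays, compared groups alone, title numbers, single features and each array left out.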

Additional observations from a re-analysis of the deposited data

Results flagged for a closer look

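In 3 of 28 sets of 4 arrays (7 genes in 4 groups), 1 array lay far from the other 3, its gap to the nearest exceeding Dixon's 95% critical share of the whole range. Chance marks about 1 in 20 such sets. Values with the fitted dye effect removed were used. The share of the range was 0.878 for Adcyap1r1 in no factor cells at 6 d, where replicate 3 was high. It was 0.844 for Adcyap1r1 in PDGF-AA cells at 12 h, where replicate 4 was high, and 0.856 for Itm2a in no factor cells at 6 d, where replicate 2 was low. The ratio to FGF-2 differed between 6 d and 12 h, over both treatments, for Itm2a (1.56 log2 units) and for Mfge8 (-0.99 log2 units).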

How the results depend on the processing

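Counts are of the 7 genes called against FGF-2. The share of all units called under each alternative is not given here, so a changed count is no result about these genes alone. For PDGF-AA at 12 h (1 gene) the count was 0 without a dye term, 5 with the compared groups fitted alone, 3 on the most common title number alone, 4 without both replicate 4 arrays of 6 d, and 0 to 2 with 1 array left out. For no factor at 12 h (5 genes) it was 3 without a dye term and 3 to 6 with 1 array left out. For the 6 d mean (5 genes) it was 2 without a dye term and 3 to 5 with 1 array left out. For 6 d against 12 h (2 genes) it was 1 without a dye term, 1 with title number as a term, 1 on the most common title number alone, and 2 to 3 with 1 array left out. The count for PDGF-AA against no factor at 12 h was 0 under every alternative run. The median treatment difference at 6 d (-1.09) was 0.0189 on the most common title number alone and -1.45 to -0.83 with 1 array left out. On the most common title number alone the sign turned for the 6 d difference of Ednrb (1.18), Adcyap1r1 (0.0189), Mfge8 (0.197) and Itm2b (0.0574), and for the change with time of Ptprs (0.151). With 1 array left out, 5 uncalled values crossed 0: PDGF-AA minus no factor at 12 h for A2m (-0.54 to 0.042) and Itm2a (-0.10 to 0.18), the 6 d mean of Ednrb (-0.048 to 0.44) and Mfge8 (-0.053 to 0.24), and the change with time of A2m (-0.0274 to 0.56). Beyond these constructions the cause of the changes was not tested. No paired analysis was possible because replicate numbers only follow deposition order and pair no samples.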
